A study of Mus musculus with 8 samples.

Results

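The serpin superfamily was followed in mouse liver through the 43 genes of the deposited table whose symbol starts with Serpin and a clade letter from a to i, out of 21358 genes in all. The hormone carriers Serpina6 and Serpina7 (2 genes) and pseudogenes were set aside by that rule, which uses gene names and no measured value. The clades hold 20 genes (A), 13 (B), 2 each (E, F and I) and 1 each (C, D, G and H). Both groups were mouse livers taken after 22 weeks of fasting every other day, 4 libraries in each. SG, starvation glucose (libraries 101, 103, 104 and 105), stands for glucose taken in the starved state and FG, feeding glucose (libraries 93, 94, 95 and 96), for glucose taken in the fed state, as far as the labels and the series text say. The regimen itself is common to both groups, so neither is an untreated liver, and the series title places the mice in a model of metabolic dysfunction without naming a diet or an allele. Strain, sex, age, clock time and the interval since the last food or glucose are not stated in the labels. Nothing in the labels ties each library to an animal of its own, so p-values reflect only how these libraries vary, which may be partly technical.

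Serpins fold into a compact body that exposes a flexible stretch, the reactive centre loop. In the inhibitory members a protease cuts this loop, the cut strand swings into the body of the serpin, and the protease is dragged along and locked in a dead complex. Hepatocytes secrete most of the serpins of blood plasma, among them alpha-1-antitrypsin, antithrombin and C1 inhibitor, while clade B members stay inside cells and a few members, such as the collagen chaperone Serpinh1, inhibit no protease. In mice the human alpha-1-antitrypsin gene corresponds to a row of Serpina1 paralogs, whose loops differ, and the human alpha-1-antichymotrypsin gene to a row of Serpina3 paralogs.

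Expression was measured as FPKM (fragments of a gene divided by its length and by the library total), which allows levels to be compared between genes of different length. Libraries held 36545128 to 39214619 counted fragments in SG and 38253764 to 41977438 in FG. The liver label was checked against hepatocyte genes: their summed level was 49197 to 66224 FPKM in SG and 47297 to 57667 FPKM in FG, and Alb, serum albumin, was at 35965 to 49861 FPKM in SG and 38211 to 45639 FPKM in FG. Of 6 hepatocyte markers 2 were called higher, Apoa1 (limma adjusted p = 0.0447, lost whichever library was left out) and Cps1 (limma adjusted p = 0.0193, lost without SG 105). Genes reaching 1 FPKM in at least 4 of the 8 libraries were tested with limma on log2(FPKM + 1), and calls were made where p, adjusted over all 9867 genes tested, was below 0.05. Fold changes are SG minus FG on that scale, which understates the change of low genes. Of all tested genes 3.73% were called higher and 15.6% lower in SG, or 19.4% in either direction, and their median log2 fold change was -0.135.

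Summed serpin FPKM was higher in SG libraries, mainly through Serpina1e and Serpina3k. FPKM is relative to the library total, so the amount of serpin mRNA per liver was not measured. Among 23 tested serpins 7 were called higher in SG, against 3.73% of all tested genes. They were the alpha-1-antitrypsin paralogs Serpina1a, Serpina1b, Serpina1d and Serpina1e, the contrapsin-like Serpina3k, alpha-2-antiplasmin Serpinf2 and protease nexin-1 Serpine2. Serpina3g, an intracellular cathepsin inhibitor, was the 1 serpin called lower, against 15.6% of all tested genes. The remaining 15 of the 23 tested serpins were not called. As a share of the 23, the calls came to 30.4% higher and 4.35% lower, and the median log2 fold change was 0.10. Of the 8 calls, 2 exceeded a 2-fold ratio of means, Serpina1e and Serpine2. The values of the groups did not overlap in 8 of the 23 serpins, where 26.1% of all tested genes showed such separation. With no filter on low values 3 serpins were called higher and 0 lower, with 8 higher and 2 lower at an unadjusted limma p below 0.05. The share of all genes at that unadjusted threshold was not counted, nor the share called by direction without the filter. These counts therefore have no background to be read against. Without FG 93 or without FG 95 the count of higher calls was 4. The Serpina3g call was lost without SG 103, SG 104, SG 105, FG 93, FG 95 or FG 96 in turn (highest limma adjusted p = 0.116).

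**Figure D1:**
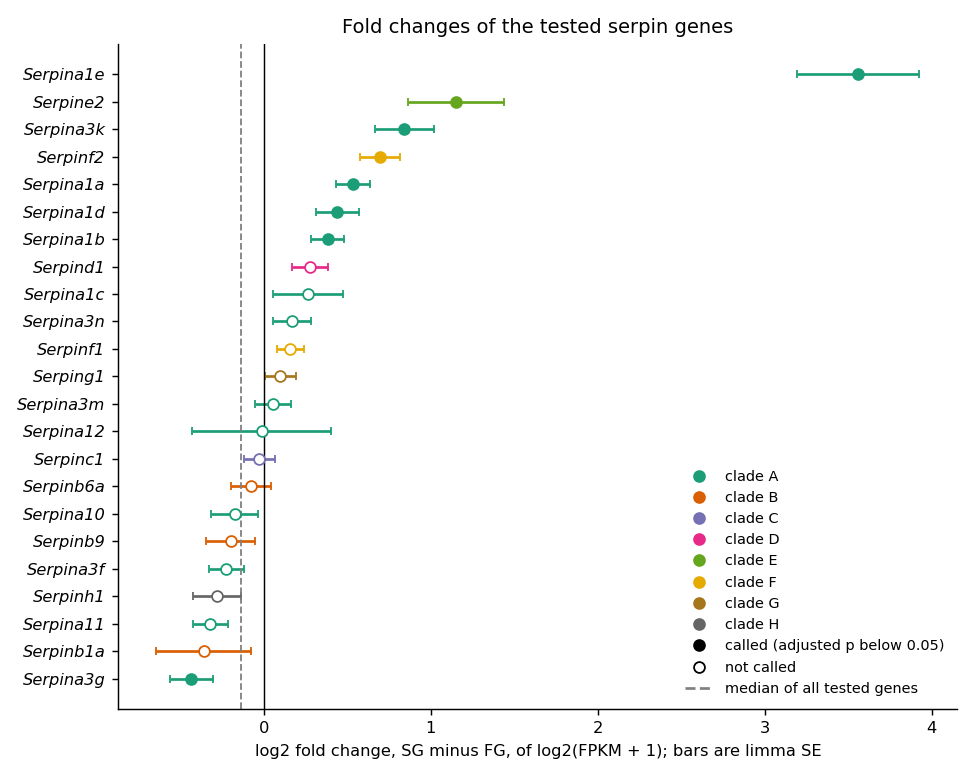
Log2 fold changes (SG minus FG, on log2(FPKM + 1)) of the 23 tested serpins in order of size and coloured by clade, with limma standard errors as bars, filled points for called genes and the median of all tested genes, -0.135, as a dashed line. Serpina1e stands apart at 3.56, and the other called serpins lie between -0.43 and 1.15.

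Summed over all 43 genes, serpins came to 23847 ± 2311 FPKM in SG and 13713 ± 1905 FPKM in FG (SD, n = 4 each), a ratio of 1.74, and the groups did not overlap. They took 3.75% ± 0.359 of all counted fragments in SG and 2.22% ± 0.293 in FG. Nearly all of this was clade A, at 21567 ± 2192 FPKM in SG and 11672 ± 1933 FPKM in FG. Without Serpina1e the ratio of the summed levels was 1.41. Without Serpina1e and Serpina3k it was 1.24, and the lowest SG library (10002 FPKM) then lay just below the highest FG library (10020.3 FPKM).

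The Serpina1 paralogs lie side by side on the minus strand of mouse chromosome 12. Serpina1e (NCBI gene 20704) spans positions 103946931 to 103956897 of GRCm38.p6, at one end of the row. Its coding sequence matches those of the other 4 paralogs at 96.3% to 96.5% of aligned bases, and the paralogs match each other at up to 98.5% (Serpina1a and Serpina1c). The 60 coding bases that vary most among the 5 genes are shown because they are where the copies can best be told apart. They hold 18 varying positions, against a median of 4 over all 1183 windows of that length, and lie at coding bases 1101 to 1160 of 1242 (1170 to 1229 of 1311 in Serpina1a), in the last part of the protein, where the reactive centre loop of alpha-1-antitrypsin lies. Capitals mark bases that differ from the most frequent base of the 5 genes. At ties for the most frequent base, c stands in lower case and the equally frequent T or G in capitals. Serpina1e has 8 capitals, more than any other paralog in this window (transcript sequences of GENCODE vM21, sense strand, 5′ to 3′).
Serpina1e: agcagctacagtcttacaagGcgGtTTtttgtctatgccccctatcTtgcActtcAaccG
Serpina1a: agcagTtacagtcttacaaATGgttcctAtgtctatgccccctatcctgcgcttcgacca
Serpina1b: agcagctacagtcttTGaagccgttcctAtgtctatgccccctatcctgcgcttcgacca
Serpina1c: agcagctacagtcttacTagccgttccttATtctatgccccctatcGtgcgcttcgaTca
Serpina1d: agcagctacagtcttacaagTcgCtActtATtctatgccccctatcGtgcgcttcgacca

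A 120-base stretch of the RefSeq promoter windows aligns without gaps in all 5 genes and is shown so that the upstream sequence of Serpina1e can be read beside that of its paralogs. It was chosen for that alignment, and the rest of the windows is not shown. Counted from each gene's RefSeq start it runs from -132 to -13 in Serpina1e, wholly upstream, while it spans the start in the other 4, from -75 to 44 in Serpina1a, for example. It lies at chr12:103956910-103957029 for Serpina1e, chr12:103863575-103863694 for Serpina1a, chr12:103738150-103738269 for Serpina1b, chr12:103904912-103905031 for Serpina1c and chr12:103773584-103773703 for Serpina1d (GRCm38.p6, minus strand, from the RefSeq promoter table). Capitals again mark bases that differ from the most frequent base, at 16 positions in all. Serpina1e differs at 1 of the 120 positions, Serpina1b at 1, Serpina1a at 3, Serpina1c at 4 and Serpina1d at 7.
Serpina1e: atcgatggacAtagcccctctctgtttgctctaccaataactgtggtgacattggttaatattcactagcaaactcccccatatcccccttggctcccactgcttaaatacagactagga
Serpina1a: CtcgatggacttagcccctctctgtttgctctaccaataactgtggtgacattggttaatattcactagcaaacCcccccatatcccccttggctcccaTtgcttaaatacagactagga
Serpina1b: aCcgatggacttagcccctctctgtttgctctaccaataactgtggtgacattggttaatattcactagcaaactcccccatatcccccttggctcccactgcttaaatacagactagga
Serpina1c: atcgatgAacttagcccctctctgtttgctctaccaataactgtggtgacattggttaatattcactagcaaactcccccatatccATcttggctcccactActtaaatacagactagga
Serpina1d: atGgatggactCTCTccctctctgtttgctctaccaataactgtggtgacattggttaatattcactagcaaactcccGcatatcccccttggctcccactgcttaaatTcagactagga

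Short motifs were searched on both strands in 27025 mouse promoters of the same length, 250 bases before to 50 after the start. The motif TTGCNNAA, an approximation of a C/EBP site, was found in the windows of Serpina1a, Serpina1b, Serpina1d and Serpina1e, and in 10.8% of all promoters. The motif TTCNNNGAA, the palindrome bound by STAT5, was found in none of the 5 Serpina1 windows and in 8.47% of all promoters. Across the 18 tested serpins with a promoter entry, STAT5 letters were in those of Serpina11, Serpina3f, Serpina3g and Serpinb6a, the C/EBP letters in 7, and the forkhead motif TGTTTAC in 0, against 3.55% of all promoters. A match describes letters in a window and shows no binding. Other motifs that were searched are not reported here.

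Serpina1e was the serpin with the largest difference. Its level was 5679, 5275, 4139 and 5563 FPKM in SG (libraries 101, 103, 104 and 105), and 286, 604, 238 and 849 FPKM in FG (libraries 93, 94, 95 and 96). Every SG library lay far above every FG library, and within FG libraries 93 and 95 were the lowest. The means were 5164 ± 704 FPKM in SG and 494 ± 287 FPKM in FG (SD, n = 4 each), a 10.4-fold ratio, with a log2 fold change of 3.56 (SE 0.365, limma adjusted p = 0.000995). The level varied more among FG livers than among SG livers, with a coefficient of variation of 13.6% in SG and 58% in FG. By level, Serpina1e ranked between 10 and 15 of all genes in SG and between 71 and 261 in FG. The call held in all 8 fits that left out 1 library (highest limma adjusted p = 0.00421).

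**Figure D2:**
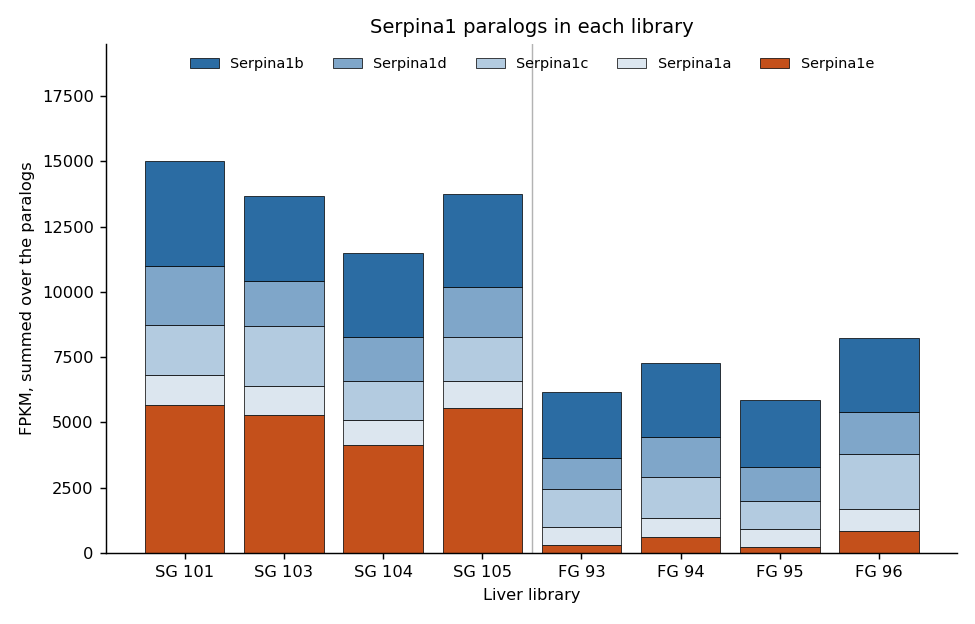
FPKM of the 5 Serpina1 paralogs stacked in 1 bar per library, so that bar height is their sum, with SG libraries left of FG libraries. Serpina1e makes up 36% to 40.4% of the sum in SG and 4.06% to 10.3% in FG.

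The other 4 paralogs differed far less. Serpina1a was at 1152, 1103, 946 and 1008 FPKM in SG and at 688, 738, 662 and 821 FPKM in FG, without overlap (log2 fold change 0.53, SE 0.101, limma adjusted p = 0.0104), and was called in all 8 fits without 1 library. Serpina1b, the most abundant paralog in FG, was at 4035, 3227, 3230.4 and 3588 FPKM in SG and at 2540.0, 2834, 2580.1 and 2823 FPKM in FG (log2 fold change 0.38, limma adjusted p = 0.0313). Its groups also stood apart, but the call was lost without SG 105, FG 93, FG 95 or FG 96 (highest limma adjusted p = 0.0892). Serpina1d was at 2265, 1723, 1708 and 1917 FPKM in SG and at 1179, 1533, 1313 and 1589 FPKM in FG (log2 fold change 0.44, limma adjusted p = 0.0445). Again the lowest SG library was above the highest FG library. The Serpina1d call was kept in 1 of the 8 fits without 1 library, the fit without FG 96 (highest limma adjusted p = 0.121), and was also lost after quantile normalization. Serpina1c was at 1899, 2327, 1483 and 1687 FPKM in SG and at 1483, 1573, 1073 and 2131 FPKM in FG. Its groups overlapped and it was not called (log2 fold change 0.26, limma adjusted p = 0.399).

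Together the 5 alpha-1-antitrypsin paralogs came to 13489 ± 1461 FPKM in SG and 6885 ± 1074 FPKM in FG (SD, n = 4 each), a ratio of 1.96. Without Serpina1e the other 4 came to 8325 ± 814 FPKM in SG and 6390.5 ± 788 FPKM in FG, a ratio of 1.3, with 1 SG library at 7368 FPKM close to the highest FG library at 7365 FPKM. Serpina1e made up 38.2% ± 1.85 of the sum in SG and 6.83% ± 2.99 in FG, while Serpina1b made up 26.2% ± 1.87 in SG and 39.6% ± 4.05 in FG. Relative to Serpina1a the levels of Serpina1b and Serpina1d overlapped between groups. The ratio to Serpina1a was 1.81 ± 0.177 in SG and 1.93 ± 0.154 in FG for Serpina1d. For Serpina1e that ratio was 4.9 ± 0.473 in SG and 0.657 ± 0.324 in FG.

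How far the copies can be separated by reads was measured on the annotated exons. Of all 150-base windows, the read length of these libraries, 7.36% in Serpina1e also occur in another gene, against 11.9% in Serpina1b, 23.3% in Serpina1d, 35.1% in Serpina1a and 59.7% in Serpina1c. By this share Serpina1e overlapped other genes least, and Serpina1c most. The shares count any other gene, among them Gm8893 for all paralogs and the antisense gene B430119L08Rik for Serpina1c. Overlap with the other copies alone was not measured. The sources used here do not state whether reads that fit several copies were counted or dropped. The levels of single paralogs are therefore uncertain, and their sum less so.

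In the Serpina3 row one gene carried nearly all of the mRNA. Serpina3k (NCBI gene 20714, chromosome 12, 104338486 to 104345739), a plasma serpin that binds tissue kallikrein, was at 7363, 9249, 6551 and 6988 FPKM in SG and at 4196, 4746, 3010.3 and 5069 FPKM in FG. All SG libraries were higher than all FG libraries. Its means were 7538 ± 1188 FPKM in SG and 4255 ± 905 FPKM in FG (SD, n = 4 each), with a log2 fold change of 0.84 (SE 0.177, limma adjusted p = 0.015), called in all 8 fits without 1 library. Serpina3k made up 94.6% ± 0.891 of the summed Serpina3 level in SG and 91.3% ± 2.21 in FG. It took 1.25% ± 0.196 of all counted fragments in SG and 0.703% ± 0.15 in FG. Its reads are separable from those of its closest tested paralog: 0.262% of its 150-base windows also occur in Serpina3m, to which its coding sequence is 91.6% identical.

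The neighbours of Serpina3k were not called with it, apart from Serpina3g in the other direction. Serpina3m was at 228, 212, 248 and 248 FPKM in SG and at 195, 210.1, 249 and 249.8 FPKM in FG, fully overlapping (log2 fold change 0.05, limma adjusted p = 0.748). Serpina3n, an acute phase inhibitor of granzyme B and leukocyte elastase, was at 201, 176, 176 and 168 FPKM in SG and at 135, 164, 156 and 189 FPKM in FG. Here too the groups overlapped (log2 fold change 0.17, limma adjusted p = 0.319). The ratio of Serpina3k to Serpina3m was 32.6 ± 7.71 in SG and 19.1 ± 4.78 in FG, without overlap. Serpina3g, which lacks the secretion signal of its paralogs and inhibits cathepsins inside cells, was at 3.42, 3.73, 2.72 and 3.26 FPKM in SG and at 5.45, 3.86, 4.38 and 5.56 FPKM in FG. It was the only serpin called lower (log2 fold change -0.43, SE 0.127, limma adjusted p = 0.0426), with the highest SG library just under the lowest FG library. Beside the lost calls without single libraries given above, the call was lost after median-ratio scaling (limma adjusted p = 0.169) and with limma voom on recovered fragments (limma adjusted p = 0.0571). Serpina3f was at 1.28 ± 0.132 FPKM in SG and 1.67 ± 0.287 FPKM in FG (SD, n = 4 each) and was not called (limma adjusted p = 0.157).

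**Figure D3:**
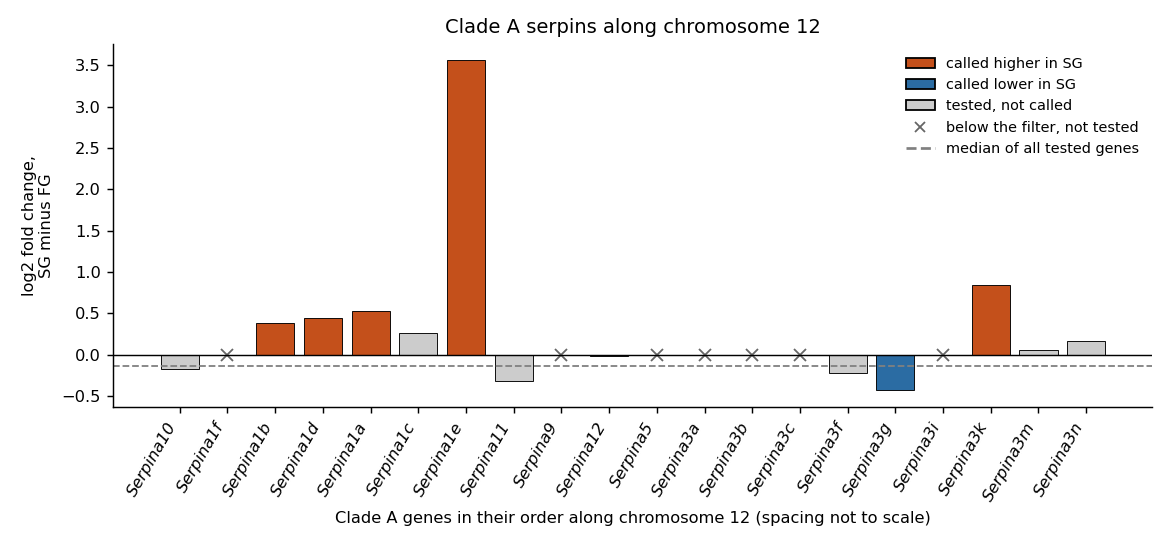
Log2 fold changes (SG minus FG, on log2(FPKM + 1)) of the 20 clade A genes in their order along chromosome 12, with spacing not to scale, where crosses mark genes below the filter. Called genes lie next to uncalled ones: Serpina1e at 3.56 is followed by Serpina11 at -0.32, and Serpina3k at 0.84 by Serpina3m at 0.05.

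The other clade A genes sit in the same 798 kb of chromosome 12. Serpina10, the protein Z-dependent inhibitor of coagulation factor Xa, was at 94.7, 82.1, 64.2 and 71.9 FPKM in SG and at 96.8, 79.4, 100.4 and 76.2 FPKM in FG (log2 fold change -0.18, limma adjusted p = 0.402). Serpina11, the next gene after Serpina1e at a distance of 23346 bases, was at 31.5 ± 4.37 FPKM in SG and 39.3 ± 2.09 FPKM in FG (SD, n = 4 each; log2 fold change -0.32, limma adjusted p = 0.0619). It was not called, but was called lower without SG 103 (limma adjusted p = 0.0384). Serpina12, the adipokine vaspin, had the highest coefficient of variation of the tested clade A genes within SG, 57.2%, and was at 12.6, 18.6, 8.91 and 3.74 FPKM in SG and 11.8, 11.1, 5.19 and 12.5 FPKM in FG. SG held both the highest and the lowest of these values (limma adjusted p = 0.985). Clade A members under the filter included Serpina5, the protein C inhibitor, at 0.0234 to 0.306 FPKM in SG and 0.111 to 0.259 FPKM in FG.

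Neither of the main thrombin inhibitors was called. Serpinc1, antithrombin, which blocks thrombin and factor Xa, was at 917, 808, 827 and 861 FPKM in SG and at 831, 806, 999 and 854 FPKM in FG. The groups overlapped almost wholly (log2 fold change -0.03, SE 0.0932, limma adjusted p = 0.846). Serpind1, heparin cofactor II, which blocks thrombin alone among the clotting proteases, was at 309, 246, 233 and 273 FPKM in SG and at 197, 235, 215 and 227 FPKM in FG. Only SG 104 fell inside the FG range, and the gene was not called (log2 fold change 0.27, SE 0.107, limma adjusted p = 0.0998). After median-ratio scaling, which moved the median of all tested genes to 0.006, Serpind1 was called higher (limma adjusted p = 0.047). For Serpinc1, 31.6% of 150-base windows overlap the antisense gene Zbtb37, and the sources used here do not state whether reads were counted by strand.

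Of the serpins that restrain plasmin and its activators, the plasmin inhibitor itself was higher in SG. Serpinf2, alpha-2-antiplasmin, the main plasma inhibitor of plasmin, was at 430.0, 335, 299 and 379 FPKM in SG and at 197, 232, 218 and 236 FPKM in FG. The lowest SG library lay above the highest FG library. The means were 361 ± 56.6 FPKM in SG and 221 ± 17.5 FPKM in FG (SD, n = 4 each), with a log2 fold change of 0.70 (SE 0.121, limma adjusted p = 0.00801), and the call held in all 8 fits without 1 library. Serpinf1, PEDF, a secreted serpin that inhibits no protease and lies beside Serpinf2 on chromosome 11 within 29.5 kb, was at 447, 387, 382 and 396 FPKM in SG and at 355, 347, 372 and 369 FPKM in FG. These values did not overlap either, yet the gene was not called (log2 fold change 0.16, limma adjusted p = 0.191). Median-ratio scaling turned that into a call (limma adjusted p = 0.046). The ratio of Serpinf2 to Serpinf1 was 0.891 ± 0.0858 in SG and 0.612 ± 0.0507 in FG, without overlap.

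Serpine2, protease nexin-1, which inhibits thrombin and urokinase at cell surfaces, was at 8.16, 12.9, 9.23 and 5.11 FPKM in SG and at 2.44, 3.14, 2.31 and 5.99 FPKM in FG. SG 105 lay below FG 96, so the groups overlapped. The log2 fold change was 1.15 (SE 0.29, limma adjusted p = 0.0268), the second largest among the tested serpins, while the exact two-sided permutation test gave p = 0.0571 (n = 4 each), where the smallest possible is 0.0286. The call was lost without SG 103, SG 104, FG 93, FG 94 or FG 95 (highest limma adjusted p = 0.0785).

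**Figure D4:**
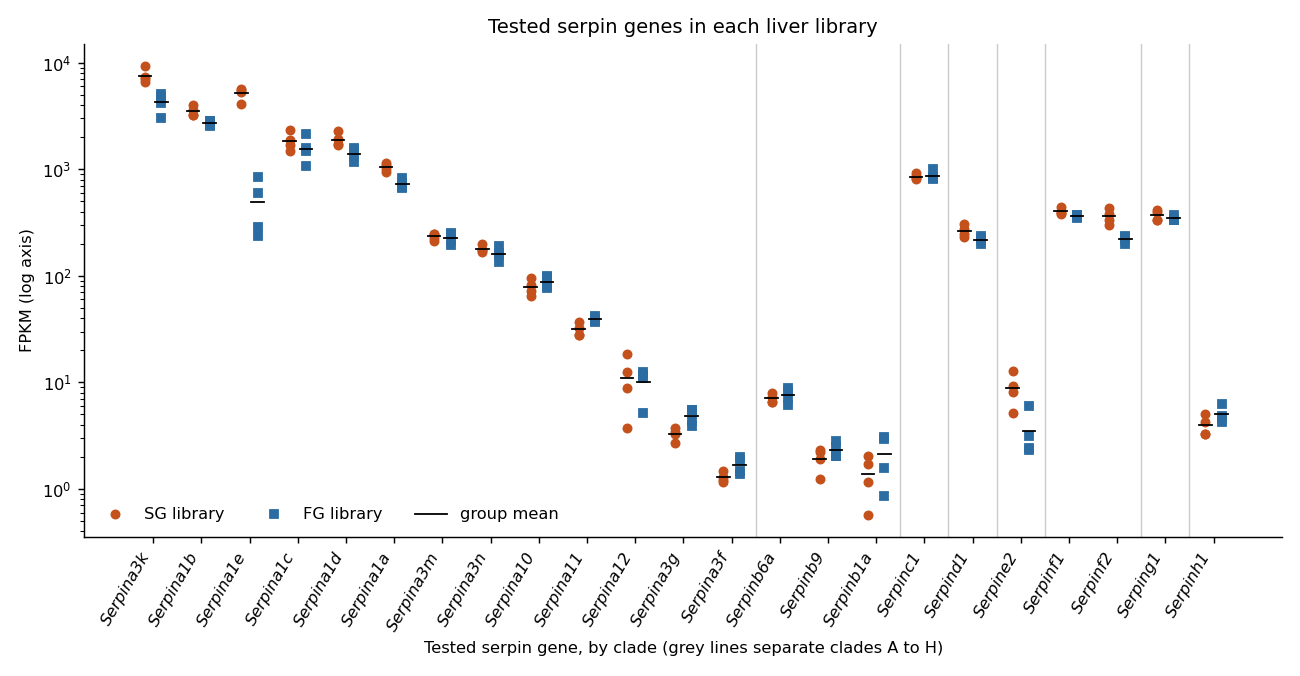
FPKM (log axis) of the 23 tested serpins in each library, by clade, with SG left of FG and a bar at each group mean. Serpina1e, Serpina3k and Serpinf2 have SG values wholly above FG values, while Serpinc1 and Serpina3m overlap.

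The complement inhibitor and the collagen chaperone of the family were not called. Serping1, C1 inhibitor, which restrains the complement proteases and plasma kallikrein, was at 414, 399, 337 and 337 FPKM in SG and at 335, 335, 343 and 371 FPKM in FG (log2 fold change 0.10, limma adjusted p = 0.49). Serpinh1, HSP47, the collagen chaperone of the endoplasmic reticulum, was at 5.01, 3.28, 3.31 and 4.23 FPKM in SG and at 6.32, 4.29, 4.61 and 4.8 FPKM in FG. Both genes overlapped between groups, and Serpinh1 was not called either (log2 fold change -0.28, limma adjusted p = 0.202). In whole liver, fewer cells of a type and less RNA per cell cannot be told apart, which touches Serpinh1 and clade B. Stellate cell markers summed to 75 to 98.6 FPKM in SG and 77.7 to 127 FPKM in FG, with 0 of 7 tested called. Of 11 tested collagen genes and their modifying enzymes, 1 was called lower and 0 higher, beside 15.6% and 3.73% of all tested genes. The 1 was P4ha2, a collagen prolyl hydroxylase subunit (log2 fold change -0.78, limma adjusted p = 0.0145). The median of the 11 was -0.28, beside -0.135 over all tested genes. After median-ratio scaling it was -0.12, beside 0.006.

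Clade B serpins had low levels. Of 13 genes 3 were tested and 0 were called, by limma on FPKM or by limma voom on recovered fragments, and 0 had an unadjusted limma p below 0.05. Limma on FPKM called 19.4% of all tested genes in either direction, and the share at that unadjusted threshold was not counted. Serpinb6a, a cytosolic inhibitor of cathepsin G, was at 6.58, 7.26, 8 and 6.58 FPKM in SG and at 8.22, 7.09, 8.93 and 6.18 FPKM in FG (log2 fold change -0.08, limma adjusted p = 0.666). Of its 150-base windows, 16% lie over antisense genes, among them Ripk1 and Nqo2. Serpinb9, an intracellular inhibitor of granzyme B, was at 1.92 ± 0.491 FPKM in SG and 2.34 ± 0.386 FPKM in FG (SD, n = 4 each; limma adjusted p = 0.357). Serpinb1a, an inhibitor of neutrophil elastase, was at 1.7, 2.04, 1.17 and 0.574 FPKM in SG and at 0.861, 2.95, 3.04 and 1.56 FPKM in FG. The spread within each group was wider than the gap between them (limma adjusted p = 0.395). Summed neutrophil markers were at 0.947 to 1.51 FPKM in SG and 2.43 to 3.87 FPKM in FG, and the 1 tested, S100a9, fell (log2 fold change -0.54, limma adjusted p = 0.0298), a call lost without SG 103, SG 104, FG 93 or FG 94, after median-ratio or trimmed-mean scaling, with no filter and with limma voom. S100a9 and S100a8 made up most of that sum, S100a8 at 0.25 ± 0.138 FPKM in SG and 1.18 ± 0.34 FPKM in FG. Ly6g, Mpo, Elane, Cxcr2 and Retnlg were at most 0.446 FPKM in any library, with Elane and Mpo higher on average in SG. The part of neutrophils in the clade B values was not tested.

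In all, 20 of the 43 serpins were below the filter. Of these, 10 stayed under 0.1 FPKM in every library, 8 reached 0.1 but not 1 FPKM, and 2 reached 1 FPKM in some library, Serpinb6b among them. A value of 0 in at least 1 library was recorded for 15 of them. Serpinb6b, just under the filter, was at 0.953, 2.22, 1.52 and 0.986 FPKM in SG and at 0.783, 1.35, 0.655 and 0.863 FPKM in FG. Just inside it was Serpinb1a, which reached 1 FPKM in 6 of the 8 libraries. Serpini1, the neuronal inhibitor neuroserpin, was at most 0.0643 FPKM in SG and 0.0824 FPKM in FG. The 13 tested serpins with a mean of 100 FPKM or more were all secreted plasma proteins.

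Among the proteases and zymogens that serpins act on, 6 of 19 tested genes were called higher and 1 lower, beside 3.73% higher and 15.6% lower over all tested genes (median log2 fold change 0.09). F11, coagulation factor XI, a target of antithrombin and alpha-1-antitrypsin, was at 39.8 ± 6.11 FPKM in SG and 19.6 ± 5.26 FPKM in FG (SD, n = 4 each; log2 fold change 1.01, limma adjusted p = 0.00912). Plg, plasminogen, whose active form is held by alpha-2-antiplasmin, was at 949 ± 72.9 FPKM in SG and 748 ± 62.6 FPKM in FG (limma adjusted p = 0.0344). Hgfac, the activator of hepatocyte growth factor, fell (log2 fold change -0.36, limma adjusted p = 0.032). The F11 call held in all 8 fits without 1 library, the Plg call in 1 of 8, the fit without FG 96 (highest limma adjusted p = 0.0989), and the Hgfac call in 2 of 8, those without SG 101 or FG 93, and not after median-ratio scaling. Of the other higher calls, those of Klkb1 and Masp2 held in 2 of 8 fits each, and those of Hpn and Ctsl in 1 of 8 each. After quantile normalization 4 of the 19 were called higher, and after median-ratio or trimmed-mean scaling 6. Over all 9867 tested genes 1078, 1044 and 1043 were then called in either direction, and the split by direction was not counted. F2, prothrombin, the chief target of antithrombin, was not called (log2 fold change 0.03, limma adjusted p = 0.835). The neutrophil proteases Elane and Ctsg, classical targets of alpha-1-antitrypsin and antichymotrypsin, were at most 0.446 FPKM in any library. Of 6 tested receptors and cofactors, 1 was called higher, the heparan sulfate proteoglycan Sdc1, at 80.9 ± 27.8 FPKM in SG and 40.1 ± 2.95 FPKM in FG (SD, n = 4 each; limma adjusted p = 0.0133).

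The genes through which secreted serpins are folded and exported were in part called lower. Of 15 tested genes of folding, export and disposal of alpha-1-antitrypsin, 7 were called lower and 0 higher, beside 15.6% and 3.73% of all tested genes, with a median log2 fold change of -0.36 beside -0.135 over all tested genes. Lman1, the cargo receptor for alpha-1-antitrypsin export, was at 59.5 ± 5.16 FPKM in SG and 91.3 ± 3.79 FPKM in FG (SD, n = 4 each; log2 fold change -0.61, limma adjusted p = 0.00343). Hspa5, the chaperone BiP, was at 117 ± 11.3 FPKM in SG and 181 ± 15.6 FPKM in FG (log2 fold change -0.64, limma adjusted p = 0.00541). Surf4, another cargo receptor, was at 70.7 ± 7.51 FPKM in SG and 97.3 ± 6.93 FPKM in FG (log2 fold change -0.46, limma adjusted p = 0.0153). After median-ratio scaling 2 of the 15 were called lower and 0 higher, with a median of -0.19, and the Surf4 call was lost. Over all 9867 tested genes 1044 were then called in either direction, and the share called lower was not counted.

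Most regulators of liver serpin genes were not called. The median log2 fold change of 15 tested factors and receptors was 0.00, beside -0.135 over all tested genes. Single values ran from -1.58 (Bcl6, limma adjusted p = 0.0676) to 0.274 (Ghr, limma adjusted p = 0.288). Bcl6 was at 2.26, 1.79, 1.91 and 1.97 FPKM in SG and at 10.6, 8.46, 1.53 and 21.4 FPKM in FG. Of the 15, 1 was called lower and 0 higher, beside 15.6% and 3.73% of all tested genes. It was Cebpa, a C/EBP factor of hepatocytes, at 101, 87.3, 84.3 and 83.5 FPKM in SG and at 135, 137, 134 and 109 FPKM in FG (log2 fold change -0.53, limma adjusted p = 0.012), and its call was lost after median-ratio scaling. Of 22 tested acute phase genes 1 was called higher and 1 lower, beside 3.73% and 15.6% of all tested genes (median 0.06). Itih3, an inter-alpha-trypsin inhibitor chain, was at 290.1 ± 45.6 FPKM in SG and 155 ± 12 FPKM in FG (limma adjusted p = 0.00287), and Cp, ceruloplasmin, fell (log2 fold change -0.41, limma adjusted p = 0.015), a call lost after median-ratio scaling. Saa1, the classical acute phase reactant, was at 20.6, 50, 13.9 and 26.6 FPKM in SG and at 8.87, 12.9, 15.8 and 13.3 FPKM in FG. It was not called (limma adjusted p = 0.074).

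Serpina1e is expressed at higher level in male than in female mouse liver, so other sex-biased genes were set beside it. Selenbp2, a male-biased gene, was at 570.0, 783, 222 and 294 FPKM in SG and at 8.34, 16.8, 7.35 and 20.8 FPKM in FG (limma adjusted p = 0.000469). Cyp2b9, a female-biased P450, was at 0.355, 0.0789, 0.0639 and 0.0496 FPKM in SG and at 84.1, 28.1, 82.8 and 18.4 FPKM in FG (limma adjusted p = 0.000433). Within FG, libraries 93 and 95 had the lowest Serpina1e, Serpina3k and Selenbp2 and the highest Cyp2b9. Of 14 tested male-biased genes, 9 were lowest in FG 93 and 95 and 3 (Cyp4a12a, Cyp4a12b and Gstp1) were highest there. Of 5 tested female-biased genes, 4 were highest there and 0 lowest. FG 93 and 95 are also the FG libraries with the lowest Serpina1e. How often all tested genes show the same split was not counted, so these counts have no background to be read against. Cyp2a4, another female-biased P450, was at 0.312, 0.16, 0.326 and 1.01 FPKM in SG and at 219, 5.74, 239 and 1.3 FPKM in FG (limma adjusted p = 0.0544). Its high values again fell in FG 93 and 95. Over the whole lists, 2 of 14 tested male-biased genes were called higher and 1 lower (Selenbp2, Elovl3 and, lower, Cyp2u1, whose call was lost without SG 104, SG 105, FG 93, FG 94 or FG 96), and 0 of 5 tested female-biased genes higher and 1 lower. Of all tested genes 3.73% were called higher and 15.6% lower, so the lower counts of these short lists say little about them. Male-biased genes summed to 6100.3 to 13800.2 FPKM in SG and 4544 to 9969 FPKM in FG, and female-biased genes to 17.1 to 63.7 FPKM in SG and 36.6 to 378 FPKM in FG. The Y-linked genes Ddx3y, Eif2s3y, Kdm5d and Uty were present in every library, with sums of 9.59 to 28.5 FPKM in SG and 4.33 to 23.4 FPKM in FG, and 0 of 4 were called. All 4 were lowest in FG 95, the library with the lowest Serpina1e, where Ddx3y was at 0.904 FPKM, against 7.71, 14.2 and 7.95 FPKM in FG 93, 94 and 96. In SG the lowest Ddx3y was 4 FPKM, in SG 101. Xist was at most 0.00891 FPKM in SG and 0.00572 FPKM in FG. Without FG 93 the log2 fold change of Serpina1e was 3.37, and without FG 95 it was 3.28, with a limma adjusted p of 0.00413 and an adjusted p of 0.00176. The part of the sex-biased programme in the Serpina1e difference was not tested.

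**Figure D5:**
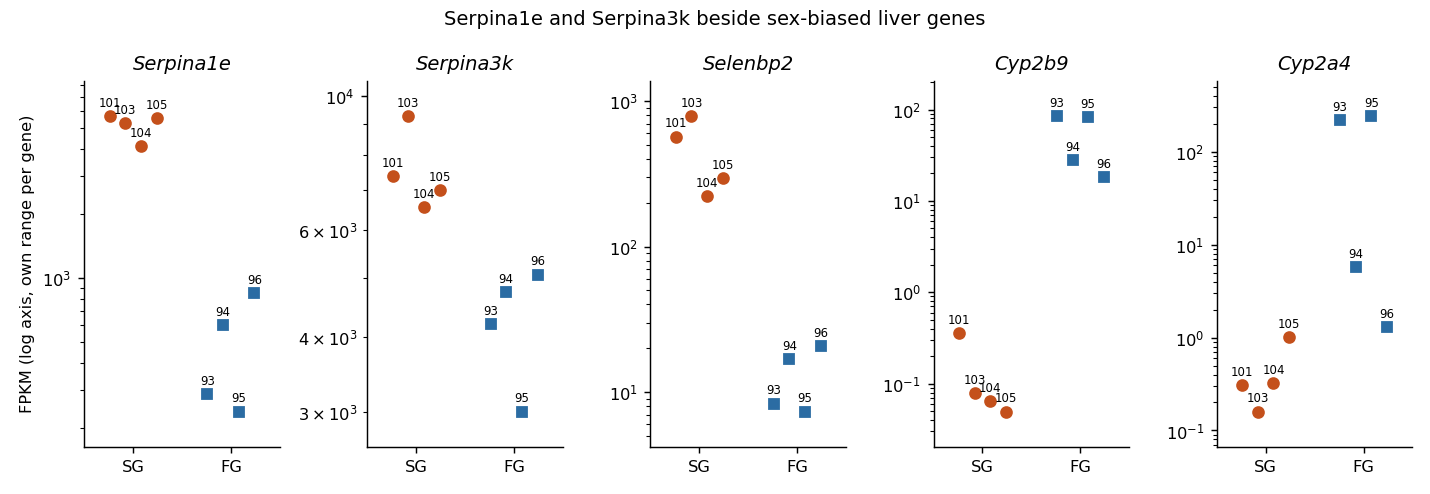
FPKM per library (log axis, own range per gene) of Serpina1e, Serpina3k, male-biased Selenbp2 and female-biased Cyp2b9 and Cyp2a4, with SG left of FG and points numbered by library. In FG, libraries 93 and 95 are low in Serpina1e, at 286 and 238 FPKM, and high in Cyp2b9, at 84.1 and 82.8 FPKM.

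Markers of the other liver cell types were read beside the serpins. Of 7 tested sinusoidal endothelial markers 1 was called lower, Clec4g (log2 fold change -0.57, limma adjusted p = 0.0161; lost without FG 93 and after median-ratio scaling), a share near the 15.6% of all tested genes called lower, and their sum was 68.1 to 80.9 FPKM in SG and 89.1 to 109 FPKM in FG. Clec4g made up much of that endothelial sum, at 27.9 to 40.3 FPKM in SG and 47.8 to 57.2 FPKM in FG. The other endothelial markers were not called, with log2 fold changes from -0.316 (Pecam1) to 0.237 (Lyve1). Kupffer cell markers had 0 of 7 called, with sums of 102 to 199 FPKM in SG and 104 to 169.8 FPKM in FG. Of 2 tested cholangiocyte markers 1 was called lower, Spp1 (limma adjusted p = 0.0226; lost without SG 104, SG 105, FG 93, FG 94 or FG 95 and after median-ratio, trimmed-mean or quantile scaling). T and NK cell markers and B cell markers were all below the filter, with sums of at most 1.88 and 4.26 FPKM in SG and 1.51 and 4.15 FPKM in FG. None of these lists was at 0 in every library, and their part in the serpin values was not tested.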

How the data were processed

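RNA of mouse liver was measured in 4 SG and 4 FG libraries. Per the labels' protocols, RNA was extracted in TRIzol, mRNA was enriched, and 150 bp read pairs were made on a NovaSeq instrument. The submitters' processing notes name fastp, HISAT2, HTSeq and DESeq2 and the builds GRCm38 and mm10, without versions. The deposited values are FPKM, computed by the authors per gene and library. Every expression column was matched to a sample by its label, and 0 columns were unmatched. The sources used here do not state how the authors' counting treated strand and reads that fit several genes.

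Values were transformed to log2(FPKM + 1). Genes with at least 1 FPKM in at least 4 libraries (9867) entered limma 3.58.1 under R 4.3.3, with a mean-variance trend and no covariates. The Benjamini-Hochberg adjustment ran over all of them. Whole fragments were recovered from the FPKM steps for 100% of 21358 genes within 0.02 fragments; the tested serpins rested on 54 to 558360 fragments per library. limma voom on these fragments called 7 of the 23 tested serpins. That alternative was chosen after seeing the data. For single genes an exact two-sided permutation test over 70 assignments was used. Sequences and positions are from RefSeq (GRCm38.p6) and GENCODE vM21, aligned with MAFFT 7.526 under Python 3.11.15. Promoter entries were matched by symbol for 18 of the 23 tested serpins; those of Serpina10, Serpina3k, Serpina3m, Serpinb1a and Serping1 were not used here. Named serpins were those called, all tested Serpina1 and Serpina3 paralogs, the most abundant member of each clade and the well-known inhibitors; from each other list up to 3 called genes with the smallest p were named, and other genes were named after their values were seen. The serpins and the gene lists were chosen with earlier results of these data known. Alternatives were another pseudocount (0.1), no filter or one at a mean of 5 FPKM, other scaling (median-ratio, trimmed mean, quantile, or without the 13 mitochondrial protein genes and 10 most abundant genes), the variance trend, library weights, a threshold of 0.01, and leaving out each library. A few genes that the naming rule covers are not reported here.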

Additional observations from a re-analysis of the deposited data

How the results depend on the processing

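Serpina1e and Serpinf2 were called under all 19 alternatives. Over all tested genes, 1912 calls became 1133 with no filter on low values, 1044 after median-ratio scaling, 1043 after trimmed-mean scaling, 1078 after quantile normalization, 415 at an adjusted p below 0.01, and 834 to 2363 without 1 library (1087 without SG 103, 1036 without SG 104 or SG 105, 834 without FG 93, 1102 without FG 95). The 7 serpins called higher became 3 with no filter, 2 at the stricter threshold, 4 to 6 without 1 library, and 9 after median-ratio or trimmed-mean scaling. The totals over all genes under these alternatives join both directions, and their split was not counted. Serpin counts by direction under them therefore have no background share to be read against. The 1 called lower became 3 with library weights, and 0 to 1 without 1 library. It became 0 with no filter, at a mean of at least 5 FPKM, after each of the scalings by median ratio, trimmed mean and quantiles, at the stricter threshold and with limma voom, where 1 or 2 serpins were lower at an unadjusted limma p below 0.05. The share of all genes at that unadjusted threshold was not counted. The median log2 fold change of the tested serpins was 0.10, against 0.274 after median-ratio and 0.288 after trimmed-mean scaling. The causes were not tested, except that the stricter threshold lowers counts by construction. No paired analysis was possible because the labels give the groups no shared replicate numbers. With 4 libraries a group, exact permutation cannot go below p = 0.0286.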
